A study of Sus scrofa with 6 samples.

Results

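The small leucine-rich proteoglycans LUM, DCN, BGN, FMOD, OGN, PRELP, ASPN and KERA were examined in the longissimus dorsi, the long muscle of the back, of Nanyang Black pigs. They are 8 genes chosen by symbol out of 25878 listed genes, and all 8 passed the filter of a mean of at least 0.5 FPKM (fragments per kilobase of transcript, scaled to the mapped fragments of the library), which left 11136 genes to test. The comparison asked how this muscle differs between pigs that deposit much fat, the HF group (HF01, HF02 and HF03), and pigs that deposit little, the LF group (LF01, LF02 and LF03). Each of the 6 pigs gave 1 library of total RNA. By the labels all pigs were 180 days old, while the study's own animal table gives another age. According to the methods they were female siblings kept on 1 farm. The pigs received no treatment, and the groups are defined by fat deposition alone, so the comparison is between pigs of differing phenotype.

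Small leucine-rich proteoglycans are secreted proteins built on a curved core of leucine-rich repeats. They bind to collagen fibrils, limit how thick the fibrils grow and set their spacing, and several of them also hold growth factors of the TGF-beta family in the matrix. In skeletal muscle they lie in the connective tissue around fibres and bundles and are known to be made mainly by fibroblasts and related mesenchymal cells. Class I holds decorin (DCN), biglycan (BGN) and asporin (ASPN), class II holds lumican (LUM), fibromodulin (FMOD), PRELP and keratocan (KERA), and class III holds osteoglycin (OGN, also called mimecan). Decorin and biglycan carry chains of chondroitin or dermatan sulfate, while lumican, fibromodulin and keratocan can carry keratan sulfate.

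The libraries listed 14569 to 15336 genes above 0. Markers of skeletal muscle fibres summed to 22571 to 47830 FPKM in HF and 43738 to 65380 in LF, so they were abundant in every pig. ACTA1, the skeletal muscle actin, has an entry of 0 in HF01 and HF03 and was at 10272 to 15140 FPKM in the other pigs. These entries of 0 lower the fibre marker sums of HF01 and HF03. LF02 has entries of 0 for the mitochondrial COX1, COX3, ATP6 and ATP8. Mitochondrial genes made up 52.8%, 59.3% and 51.3% of the FPKM of the HF pigs. In the LF pigs they made up 46.3%, 17.4% and 47.4%, so this share was higher in every HF pig. The share of LF02 was computed with its entries of 0, and ATP8 alone was at 151370 to 349657 FPKM in the other pigs. The part of the mitochondrial share in the differences between the groups was not tested. Since such listings can shift the scaling between libraries, every member was also compared with DCN inside each pig. The FPKM table carries no read total per pig. The study's supplement gives clean reads per pig, which were not used here, so no counting interval is given.

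No member passed the limma test at an adjusted p under 0.05. LUM and BGN were the only members whose 3 HF pigs all lay above the 3 LF pigs, at 2.13 and 2.47 times the LF mean. The abundant DCN was nearly level, at 1.17 times the LF mean, and the other members were at 1.27 to 2.02 times it with overlapping groups. These are levels in whole muscle, in which more cells of a type and more RNA per cell cannot be told apart.

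**Figure D1:**
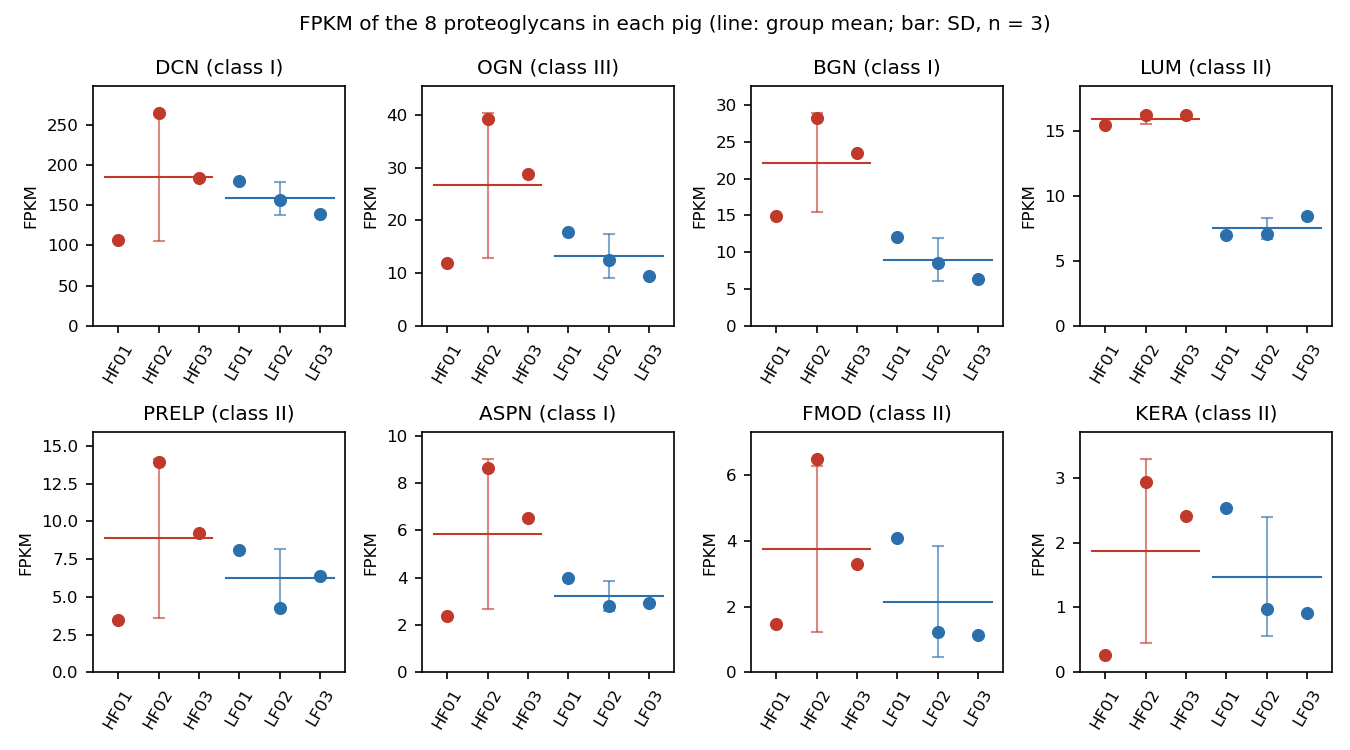
FPKM of each proteoglycan in each pig, with one panel per gene and its own axis from 0. Points are pigs (red HF, blue LF), lines are group means and bars are the SD (n = 3). LUM sits at 15.5 to 16.3 FPKM in HF and 6.99 to 8.46 in LF, whereas HF02 is the highest and HF01 the lowest HF pig in every panel.

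Of class I, DCN was the most abundant member. It lies on chromosome 5 of Sscrofa11.1 (chr5:91678608-91713925, ENSSSCG00000000915). Its levels were 106.7, 265.3 and 183.4 FPKM for HF01, HF02 and HF03 and 180.4, 156.5 and 138.7 FPKM in LF01, LF02 and LF03. HF01 was the lowest of all pigs and the other HF pigs were the highest, so the LF range lay within the HF range. The group means were 185.1 ± 79.3 and 158.5 ± 20.9 FPKM (SD, n = 3 each), with a log2 fold change of FPKM + 0.1 of 0.14 (SE 0.33, 95% interval -0.61 to 0.88, limma adjusted p = 0.831). A DCN difference of 1 on the log2 scale in favour of HF thus lay outside the interval. The sign of this difference rested on HF02, without which it was -0.17.

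BGN, a class I proteoglycan that also signals through Toll-like receptors when it is released from the matrix, showed the largest fold change of the members. It is on chromosome X (chrX:124250338-124296636, ENSSSCG00000012766). It measured 14.9, 28.3 and 23.5 FPKM among the HF pigs and 12.1, 8.49 and 6.31 FPKM in the LF pigs. The lowest HF pig was HF01 and the highest LF pig was LF01, and these were the closest pigs of the groups. The means were 22.2 ± 6.79 and 8.98 ± 2.94 FPKM (SD, n = 3 each). The log2 fold change was 1.30 (SE 0.31, 95% interval 0.58 to 2.02, limma unadjusted p = 0.0030, adjusted p = 0.0899), the 370th smallest p of the 11136 genes. The exact permutation test over the 10 splits of 3 and 3 pigs gave two-sided p = 0.1, the smallest that it allows. The span of BGN overlaps that of HAUS7, a subunit of the augmin complex of the spindle, and the library kit is not described as marking strand. HAUS7 was listed at 0.596 to 1.21 FPKM over the 6 pigs. The part of this overlap in the level of BGN was not tested.

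ASPN, which binds collagen at a site shared with decorin and restrains TGF-beta in cartilage, had the least RNA of class I. It lies on chromosome 3 (chr3:42163141-42192993, ENSSSCG00000008072) and its end overlaps the gene ECM2. It was at 2.38, 8.61 and 6.51 FPKM among the HF pigs and 3.97, 2.81 and 2.91 FPKM in the LF pigs. HF01 was again the lowest of all pigs, and both other HF pigs were above every LF pig. Its log2 fold change was 0.67 (SE 0.43, 95% interval -0.31 to 1.65, limma adjusted p = 0.366). It was 1.21 without HF01 and 0.30 without HF02.

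Of class II, LUM differed most sharply relative to its spread. Lumican keeps collagen fibrils evenly spaced and is best known from the transparent cornea. The gene is on chromosome 5 (chr5:91748494-91760563, ENSSSCG00000000916). Its levels were 15.5, 16.3 and 16.2 FPKM for HF01, HF02 and HF03 and 6.99, 7.07 and 8.46 FPKM in LF01, LF02 and LF03. The HF pigs were within 1.05-fold of each other and the LF pigs within 1.21-fold, and the gap between the groups was far wider than either spread. The SD within groups was 0.11 on the log2 scale, a value that 2.69% of the tested genes fell below, against a median of 0.31 over all tested genes. The log2 fold change was 1.09 (SE 0.18, 95% interval 0.68 to 1.49, limma unadjusted p = 0.00024, adjusted p = 0.0702), the 38th smallest p of all tested genes. The exact permutation test gave p = 0.1, its floor. After upper-quartile scaling the adjusted p of LUM was 0.0367 and without LF02 it was 0.0497, in a range of 0.0367 to 0.238 over the alternatives, so the call depended on these settings, and the log2 fold change was at most 1.25 and above 1 in each.

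PRELP has an arginine- and proline-rich N-terminal end that binds heparin and links basement membranes to the collagen network. It lies on chromosome 9 (chr9:64190982-64207001, ENSSSCG00000015271). It was at 3.46, 14.0 and 9.21 FPKM among the HF pigs and 8.13, 4.28 and 6.38 FPKM in the LF pigs. The pigs were interleaved only through HF01, which was the lowest of all. Between the groups the log2 fold change was 0.33 (SE 0.48, 95% interval -0.76 to 1.42, limma adjusted p = 0.698), and it ran from -0.10 without HF02 to 0.89 without HF01.

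FMOD is a close relative of lumican that binds the same region of collagen and takes part in the maturation of fibrils. The gene is the neighbour of PRELP on chromosome 9 (chr9:64059853-64074106, ENSSSCG00000015270). Its levels were 1.48, 6.48 and 3.30 FPKM among the HF pigs and 4.09, 1.22 and 1.14 FPKM in the LF pigs. LF01 was above HF01 and HF03, so the groups overlapped broadly. The log2 fold change was 0.79 (SE 0.60, 95% interval -0.58 to 2.16, limma adjusted p = 0.444). It was 1.36 without LF01 and 1.32 without HF01, but 0.53 without LF02, 0.48 without LF03 and 0.29 without HF02. The spread within the LF group was wide, with the highest LF pig at 3.60 times the lowest.

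KERA, a corneal proteoglycan, was the least abundant member. It lies next to LUM (chr5:91796324-91801357, ENSSSCG00000000917). It was at 0.259, 2.94 and 2.41 FPKM among the HF pigs and 2.53, 0.980 and 0.911 FPKM in the LF pigs. The HF pigs spanned an 11.4-fold range, the widest of any member, and held both the highest and the lowest pig. Its log2 fold change was -0.02 (SE 0.78, 95% interval -1.80 to 1.76, limma adjusted p = 0.989), and it was 0.96 without HF01. An interval this wide leaves room for a change of more than 3-fold in either direction.

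OGN, the class III member, is a glycoprotein of bone and vessel walls that is also found in muscle. It was the member second in abundance and lies on chromosome 3 (chr3:42116436-42135852, ENSSSCG00000034607). Its levels were 11.9, 39.2 and 28.8 FPKM among the HF pigs and 17.7, 12.5 and 9.43 FPKM in the LF pigs. HF02 and HF03 stood above every LF pig while HF01 fell between LF02 and LF03. The means were 26.6 ± 13.8 and 13.2 ± 4.20 FPKM (SD, n = 3 each), and the log2 fold change was 0.89 (SE 0.43, 95% interval -0.10 to 1.88, limma adjusted p = 0.238). Without HF01 it was 1.39 and without HF02 it was 0.53.

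**Figure D2:**
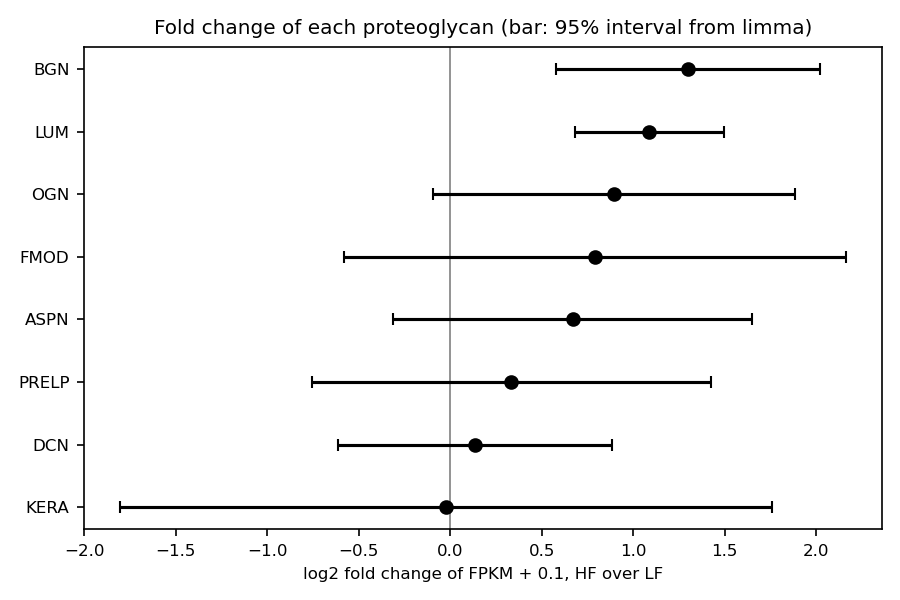
Log2 fold change of FPKM + 0.1, HF over LF, for each proteoglycan, with the 95% interval from limma as the bar and 0 as the vertical line. The intervals of BGN (0.58 to 2.02) and LUM (0.68 to 1.49) lie above 0 and the other 6 include it.

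Counted over the members, 0 of 8 were higher in HF at an adjusted p under 0.05, where 0.0359% of all tested genes were. At an adjusted p under 0.10, LUM and BGN were higher, 2 of 8, against 2.83% of all tested genes. Neither was with the replicate number as a block (limma adjusted p = 0.117 for LUM and 0.132 for BGN). At an unadjusted p under 0.05 the same 2 members were higher and 0 were lower, while 11.0% of the tested genes were higher and 13.8% were lower. LUM and BGN were also the 2 members with groups that did not overlap, a pattern that 12.8% of the tested genes showed in this direction. The log2 fold change was above 0 in 7 of 8 members and in 48.1% of all tested genes, and its median was 0.73 over the members and -0.03 over all tested genes. KERA, the exception at -0.02, was at 0.12 after upper-quartile scaling, which moved the median of all tested genes up by 0.16. The member median was 1.16 without HF01 and 0.29 without HF02. These shares describe 8 genes measured in the same 6 pigs, which are not independent of one another. Without HF01, 5 members were higher at an unadjusted p under 0.05 (OGN, BGN, LUM, PRELP and ASPN; 13.6% of the genes tested then), and without LF01, 4 were (OGN, BGN, LUM and FMOD; 7.82% of the genes tested then).

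The members shared an order of pigs that LUM did not follow closely. HF02 was the highest pig for 8 of 8 members and HF01 was the lowest HF pig for 8 of 8. LF01 was the highest LF pig for 7 members, with LF03 highest for LUM. In 6 members (LUM, BGN, DCN, OGN, PRELP and ASPN) HF02 and HF03 were both above every LF pig. HF01 lay within or below the LF range for every member other than LUM and BGN. How often these orders of pigs occur among all tested genes was not computed, so the counts describe the members only. The range among the HF pigs was 1.05-fold for LUM and 1.90-fold for BGN, compared with 2.49-fold for DCN, 3.28-fold for OGN, 3.61-fold for ASPN, 4.03-fold for PRELP and 4.39-fold for FMOD.

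The order of abundance was the same in both groups, from DCN through OGN, BGN, LUM, PRELP, ASPN and FMOD to KERA. Only DCN and OGN, the first neighbours in this order, were apart in every pig of both groups without overlap of their ranges. LUM and PRELP were also apart in HF and PRELP and ASPN in LF, and the other neighbours overlapped. The 8 members summed to 156.5, 381.0 and 273.4 FPKM among the HF pigs and 235.9, 193.8 and 174.2 FPKM in the LF pigs, or 270.3 ± 112.3 and 201.3 ± 31.5 FPKM (SD, n = 3 each). The total thus overlapped between the groups, since HF01 had the lowest sum, and the difference of 69.0 FPKM was 125.9 without HF01 and 13.6 without HF02. DCN made up 68.2%, 69.6% and 67.1% of the sum in the HF pigs and 76.4%, 80.8% and 79.6% in the LF pigs. This share did not overlap between the groups. Without DCN, the other 7 members summed to 85.2 ± 33.2 FPKM in HF and 42.8 ± 11.1 FPKM in LF, with HF01 at 49.9 below LF01 at 55.6.

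Each member was also expressed relative to DCN in the same pig. The plain ratio of FPKM does not depend on the scaling between libraries. The log2 ratio tested here has 0.1 added to each FPKM and can depend on it for low members. By the log2 ratio, 4 of 7 members had higher ratios in every HF pig than in every LF pig. When 1 instead of 0.1 was added to the FPKM, 3 of 7 did, since the groups then overlapped for LUM (exact permutation p = 0.2). How many of all tested genes have ratios to DCN that separate in this way was not computed. These counts thus describe the members only. LUM was at 14.5%, 6.14% and 8.85% of DCN in HF01, HF02 and HF03 and at 3.88%, 4.52% and 6.10% in the LF pigs. HF02 and LF03 were nearly equal here, so the sharp separation of LUM in FPKM was narrower when set against DCN. BGN was at 13.9%, 10.7% and 12.8% of DCN in the HF pigs and 6.73%, 5.42% and 4.55% in the LF pigs. For BGN the separation was wide in all pigs, HF01 included. OGN was at 11.2%, 14.8% and 15.7% against 9.84%, 7.96% and 6.80%, and ASPN at 2.24%, 3.24% and 3.55% against 2.20%, 1.80% and 2.10%. For ASPN, HF01 and LF01 were nearly equal. The mean log2 ratio was higher in HF by 1.16 for BGN, 0.95 for LUM, 0.76 for OGN and 0.53 for ASPN. Each of these 4 gave exact permutation p = 0.1, the smallest possible with 3 against 3 pigs, and 0.175 after Benjamini-Hochberg adjustment over the 7 ratios. The HF and LF pigs overlapped for FMOD (difference 0.65, exact p = 0.3), PRELP (0.20, exact p = 0.5) and KERA (-0.16, exact p = 0.8).

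**Figure D3:**
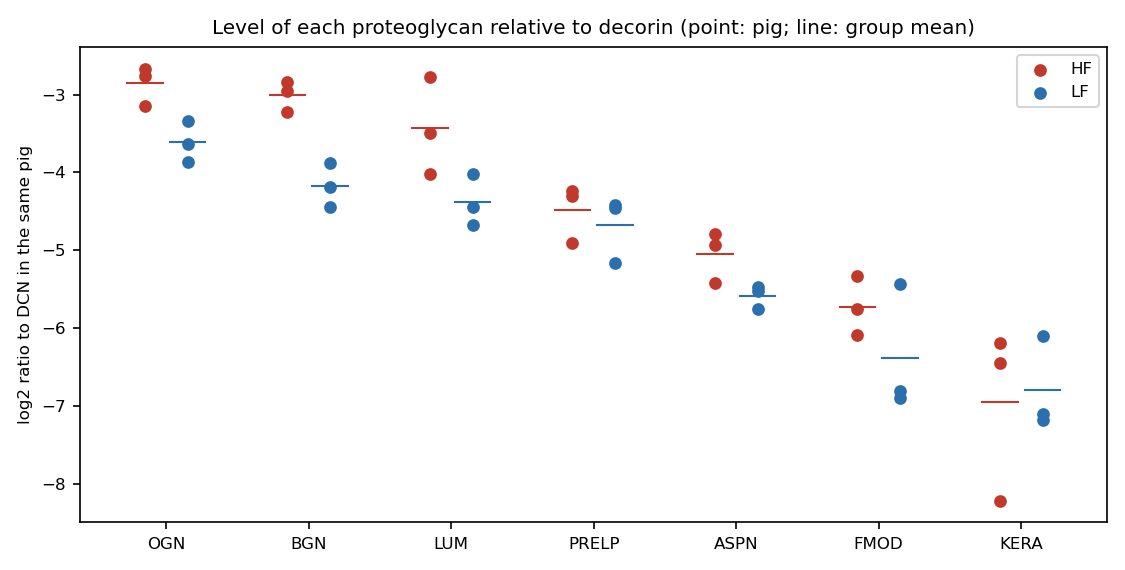
Log2 ratio of each proteoglycan to DCN within the same pig, computed from FPKM + 0.1 (points are pigs, red HF and blue LF; lines are group means). The HF pigs lie above the LF pigs for OGN, BGN, LUM and ASPN, by 0.76, 1.16, 0.95 and 0.53 on average, and overlap them for PRELP, FMOD and KERA.

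Likeness of patterns was measured as the root mean square difference of log2(FPKM + 0.1) over the 6 pigs after centring each gene. OGN and ASPN were the closest members, at 0.19, and LUM and KERA the farthest apart, at 1.22. For OGN, 1 of the 11135 other tested genes was closer than ASPN, and for ASPN 5 were closer than OGN. The member closest to LUM was BGN at 0.44, and 1804 tested genes were closer to LUM than that. The 5 genes with a symbol most like LUM were KCNE1 (a potassium channel subunit, 0.07), XRN1 (an RNA exonuclease, 0.07), SETD1B (a histone methyltransferase, 0.10), ZEB1 (a transcription factor, 0.12) and VANGL1 (a planar polarity protein, 0.12). ZEB1, the most abundant of these, was at 5.97, 6.58 and 7.04 FPKM among the HF pigs and 3.33, 2.91 and 4.02 FPKM in the LF pigs. A list of nearest genes among 11135 over 6 pigs is a description only.

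The members sit in 4 places of the genome, and 7 of them lie in clusters with other genes of the family. On chromosome 5 the order is DCN, LUM, KERA and EPYC, with 34569 bp between DCN and LUM and 35761 bp between LUM and KERA. These neighbours did not share a pattern over the pigs, as LUM differed from DCN by 0.63 (5141st closest of the tested genes) and from KERA by 1.22 (10820th closest). EPYC, the cartilage member epiphycan, is listed at 0 in every pig but LF03, which had 0.200 FPKM. On chromosome 3 the order is OGN, OMD, ASPN and ECM2, with 6059 bp between OGN and OMD, 2085 bp between OMD and ASPN, and an overlap of ASPN and ECM2. Here the neighbours were closer in pattern. OMD was the second closest of all tested genes to ASPN (0.16), ECM2 the fourth closest to ASPN (0.19) and the 6th closest to OGN (0.22). OGN and OMD, which are directly adjacent, were the least alike of these pairs, at 0.29, with OMD the 41st closest gene to OGN. The part of the overlap in the likeness of ASPN and ECM2 was not tested.

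OMD (osteomodulin, a class II proteoglycan of bone) was at 1.58, 6.17 and 5.92 FPKM among the HF pigs and 3.23, 1.86 and 2.31 FPKM in the LF pigs, with a log2 fold change of 0.67 (limma adjusted p = 0.425). ECM2 was at 5.64, 18.0 and 16.3 FPKM among the HF pigs and 7.15, 7.39 and 5.75 FPKM in the LF pigs, with a log2 fold change of 0.81 (limma adjusted p = 0.260). Like ASPN, both had HF01 as the lowest of all pigs and the other HF pigs above every LF pig, while for OGN LF03 was below HF01. CENPP, a centromere protein on the other side of OGN, had a log2 fold change of -0.64 (adjusted p = 0.169). On chromosome 9, FMOD and PRELP are separated by 116876 bp, and PRELP was the 21st closest tested gene to FMOD, at 0.48. OPTC, 4476 bp beyond PRELP, codes for the eye proteoglycan opticin and is listed at 0 in all pigs. BTG2, on the other side of FMOD, had a log2 fold change of 0.56 (adjusted p = 0.628). Around BGN on chromosome X, the log2 fold changes were 0.25 for HAUS7, 0.80 for ZFP92 and 0.85 for ATP2B3, with limma adjusted p of 0.640, 0.192 and 0.180.

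**Figure D4:**
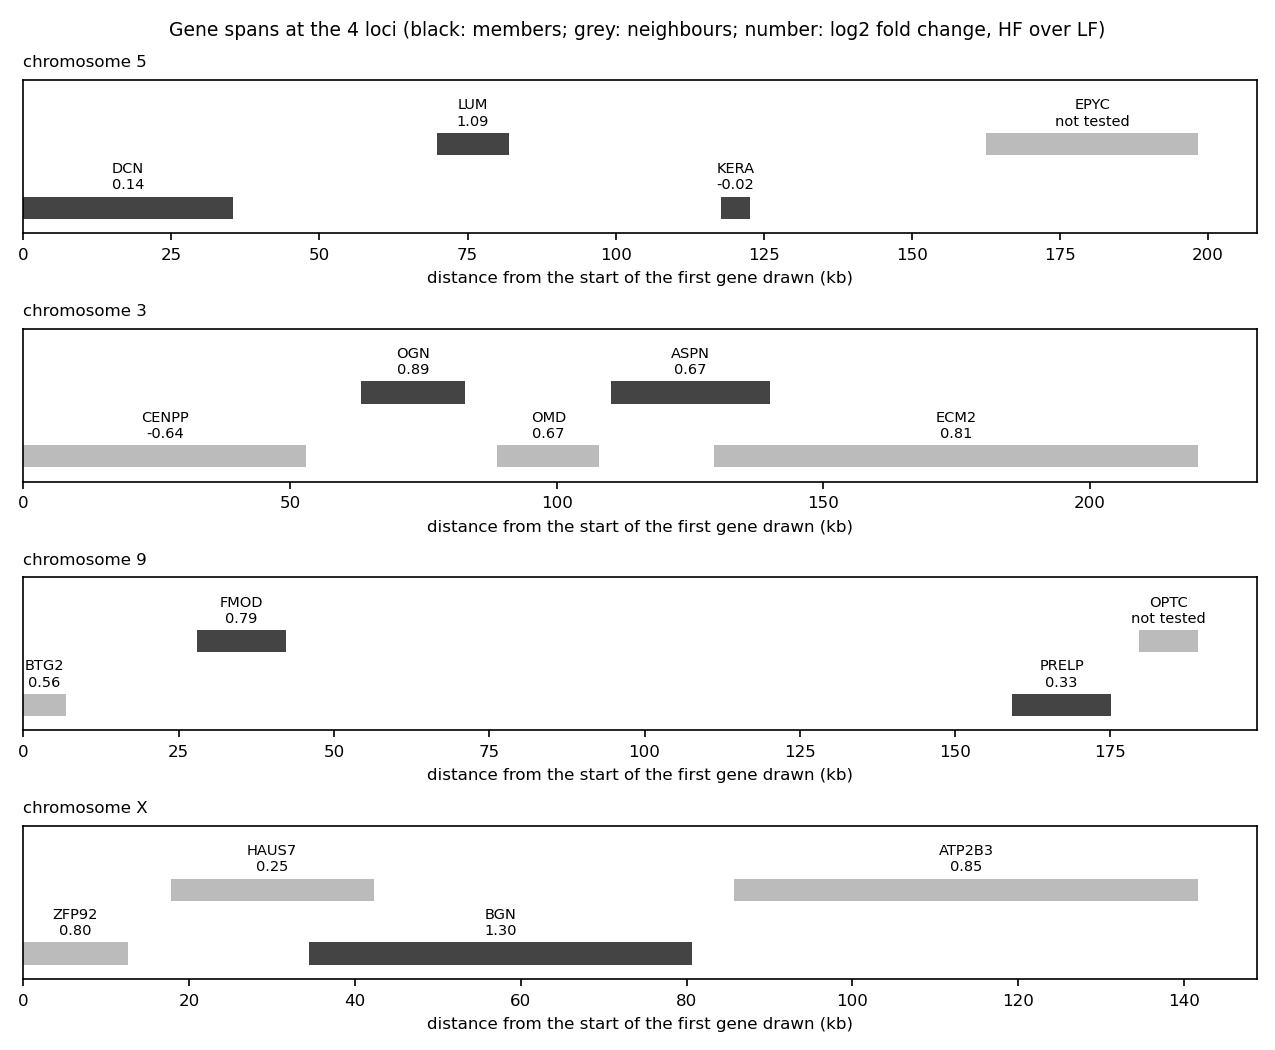
Spans of the members (black) and their listed neighbours (grey) at the 4 loci, drawn to scale as distance in kb from the start of the first gene drawn, with the log2 fold change of each gene printed above it. The chromosome 3 genes OGN, OMD, ASPN and ECM2 lie between 0.67 and 0.89, while DCN, LUM and KERA on chromosome 5 are at 0.14, 1.09 and -0.02.

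The genes that work with these proteoglycans were examined in 7 lists. Of 94 such genes listed, 69 were tested, 24 were higher in HF at an unadjusted p under 0.05, 0 were lower, and 0 passed at an adjusted p under 0.05, where 11.0% and 13.8% of all tested genes were higher and lower at an unadjusted p under 0.05. The count of 24 was 38 without HF01 and 16 without HF02. Among the other small leucine-rich proteoglycans, 4 of 10 were tested and had a median log2 fold change of 0.68. TSKU (tsukushi) was the only one of them higher at an unadjusted p under 0.05, with 1.12, 1.46 and 1.71 FPKM in HF against 0.744, 0.992 and 0.782 in LF (log2 fold change 0.69, limma adjusted p = 0.161). PODN (podocan), the most abundant of them, was at 20.9, 26.1 and 29.3 FPKM among the HF pigs and 21.0, 27.5 and 23.0 FPKM in the LF pigs. These groups overlapped, with a log2 fold change of 0.09.

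The collagens to which the members bind had the highest median of the companion lists. Of 12 fibrillar, fibril-associated and type VI collagen genes, 11 were tested and 9 were higher at an unadjusted p under 0.05. All 11 had positive log2 fold changes, and the median was 1.03. COL3A1, the collagen of pliable connective tissue, was at 97.9, 262.8 and 199.3 FPKM among the HF pigs and 70.5, 76.3 and 71.1 FPKM in the LF pigs (log2 fold change 1.25, SE 0.34, limma adjusted p = 0.0992). Its pig order in HF was that of the members, with HF01 lowest, yet HF01 stayed above all LF pigs. COL5A1, which nucleates fibrils, had a log2 fold change of 1.31 (limma adjusted p = 0.0808), and COL5A3 had 1.03 (limma adjusted p = 0.0902). COL1A1 and COL1A2, the chains of the main fibril collagen of muscle connective tissue, had log2 fold changes of 1.15 and 1.06 with overlap only for COL1A2.

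Of 15 large and pericellular proteoglycans, 10 were tested, 5 were higher at an unadjusted p under 0.05 and 0 lower, with a median log2 fold change of 0.72. HSPG2, the basement membrane proteoglycan perlecan, was at 13.6, 16.6 and 22.3 FPKM among the HF pigs and 7.78, 7.81 and 5.97 FPKM in the LF pigs (log2 fold change 1.25, limma adjusted p = 0.0778). CSPG4, a proteoglycan of pericytes, had 1.33 (limma adjusted p = 0.0934) and GPC1 had 0.68 (limma adjusted p = 0.101). In contrast, VCAN (versican), the large chondroitin sulfate proteoglycan of loose tissue, had a log2 fold change of -0.29 (limma adjusted p = 0.477).

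The enzymes that build the sugar chains had the lowest medians of the companion lists. For chondroitin and dermatan sulfate, 16 of 21 genes were tested, 1 was higher at an unadjusted p under 0.05, 0 were lower, and the median log2 fold change was 0.18. DSEL, an epimerase that turns chondroitin into dermatan sulfate, was that gene, at 0.561, 1.13 and 0.919 FPKM in HF against 0.247, 0.374 and 0.227 in LF (log2 fold change 1.32, limma adjusted p = 0.110). CHST3 and B3GALT6 had log2 fold changes of 0.64 and 0.90 (limma adjusted p = 0.202 and 0.209). For keratan sulfate and tyrosine sulfation, 6 of 10 genes were tested, 0 were higher or lower at an unadjusted p under 0.05, all 6 log2 fold changes were positive, and the median was 0.41. TPST1, which sulfates tyrosines such as those of fibromodulin, had a log2 fold change of 0.43, CHST2 0.64 and B4GALT1 0.38.

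Among growth factors, receptors and latent binding proteins that pair with the members, 17 of 18 genes were tested, 6 were higher at an unadjusted p under 0.05 and 0 lower, and the median was 0.55. LTBP2, a microfibril protein of the latent TGF-beta binding protein family, had a log2 fold change of 1.69 (limma adjusted p = 0.0778). EGFR, a receptor that decorin binds, had 1.22 (limma adjusted p = 0.0899), and CCN2, a matrix-inducing target of TGF-beta, had 1.92 (limma adjusted p = 0.120). Of the TGF-beta ligands in the list, TGFB1 had 0.28 (limma adjusted p = 0.439) and TGFB2 had 0.22 (limma adjusted p = 0.673). TGFB3 had 1.23 (limma unadjusted p = 0.0185, adjusted p = 0.132) and was among the 6 counted as higher. The groups overlapped for each of these ligands. Of 12 proteases that cut these proteoglycans, 5 were tested, 2 were higher at an unadjusted p under 0.05 and 0 lower, and the median was 0.46. They were ADAMTS1, an aggrecanase, with a log2 fold change of 1.13 (limma adjusted p = 0.0899), and MMP14, a membrane-bound collagenase, with 0.74 (limma adjusted p = 0.156). BMP1, which in other species trims the propeptides of biglycan and osteoglycin, had 0.46 (limma adjusted p = 0.395).

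**Figure D5:**
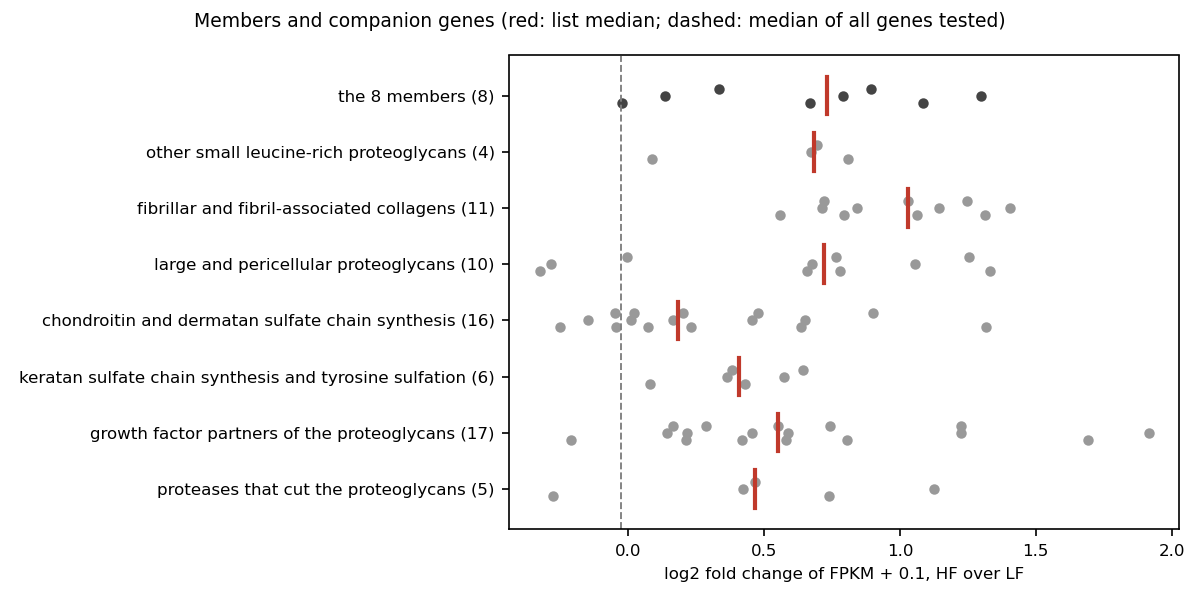
Log2 fold change of FPKM + 0.1, HF over LF, for the 8 members and the tested genes of the 7 companion lists (points are genes, offset vertically for legibility, with the number tested in brackets; red bars are list medians and the dashed line is the median of all tested genes at -0.03). The medians run from 0.18 for chondroitin and dermatan sulfate synthesis to 1.03 for the collagens, with the members at 0.73. The collagen list also holds type VI collagen genes.

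Markers of the cell types in the muscle were measured beside the members. Of 12 fibroblast markers, all were tested, 2 were higher at an unadjusted p under 0.05 (FBN1 and VIM) and 0 lower, with a median log2 fold change of 0.44. Their summed level was 265 to 515 FPKM in HF and 321 to 497 FPKM in LF, with HF01 lowest of all pigs, as it was for DCN, PRELP, ASPN and KERA. GSN (gelsolin) held much of this sum, and the other 11 markers summed to 135.7, 250.9 and 245.8 FPKM for the HF pigs against 150.6, 167.3 and 118.9 FPKM for the LF pigs, with LF03 then lowest. PDGFRA, a receptor that defines mesenchymal progenitors, was at 0.928, 2.29 and 2.48 FPKM among the HF pigs and 0.961, 1.08 and 0.866 FPKM in the LF pigs. HF01 thus lay among the LF pigs for PDGFRA too. Of 7 tendon cell markers, 3 were tested and 0 were higher or lower at an unadjusted p under 0.05. The tendon regulator SCX was at 0 to 0.172 FPKM, MKX at 0 to 0.228 FPKM, and COMP at 0 in 4 pigs and at 0.506 FPKM at most, in HF02. The part of fibroblast and tendon cell content in the member levels was not tested.

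Of 9 fat cell markers, 8 were tested, 0 were higher and 1 was lower at an unadjusted p under 0.05 (LIPE), with a median log2 fold change of 0.74. Their sum was 116, 275 and 265 FPKM among the HF pigs and 236, 179 and 113 FPKM in the LF pigs, so that HF01 and LF03 were low. LF01, in which LIPE was at 63.4 FPKM, was the highest LF pig. Without FABP4, the most abundant of them, the other 8 markers summed to 44.7, 138.4 and 161.8 FPKM for the HF pigs. For the LF pigs they summed to 123.4, 67.3 and 66.1 FPKM, and HF03 was then the highest pig, unlike for the members. ADIPOQ, a hormone made by fat cells, was at 2.69 FPKM in HF01 and 34.7 and 24.1 FPKM in HF02 and HF03. In LF01, LF02 and LF03 it was at 11.6, 8.98 and 3.83 FPKM (log2 fold change 0.83, limma adjusted p = 0.583). Of 9 smooth muscle and pericyte markers, 6 were higher at an unadjusted p under 0.05 and 0 lower, with a median log2 fold change of 1.12 and summed levels of 1230 to 2623 FPKM in HF and 1641 to 2738 in LF. Most of that sum was DES (desmin, which muscle fibres also make), with a log2 fold change of -0.36, and the other 8 markers summed to 195.5, 407.7 and 396.8 FPKM for the HF pigs against 103.7, 206.1 and 102.5 FPKM for the LF pigs. Of 5 tested Schwann cell markers 4 were higher at an unadjusted p under 0.05, with a median log2 fold change of 1.25. The sums of this list were 47.0 to 106 FPKM in HF and 31.2 to 38.6 FPKM in LF. NCMAP also passed at an adjusted p under 0.05 (limma adjusted p = 0.0294). It was at 1.62, 1.37 and 3.62 FPKM among the HF pigs and listed at 0 in every LF pig. Its log2 fold change of 4.40 thus depends on the 0.1 added to the FPKM. Endothelial and macrophage markers had 0 genes higher or lower at an unadjusted p under 0.05, with medians of 0.36 and 0.22. Skeletal muscle fibre markers had a median of -0.29. The part of these cells in the member levels was not tested.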

How the data were processed

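RNA of 6 longissimus dorsi samples, 3 HF and 3 LF, was compared, with groups taken from the sample titles. Reads were filtered with fastp and mapped to Sscrofa11.1 with HISAT2, and the authors derived the FPKM values with cufflinks, which divides by transcript length and by the mapped fragments of each library. FPKM depends on what else was sequenced, so genes that take up much of a library lower all others. The deposited signal column, the mean normalized count over the pigs from the authors' HTSeq counts and DESeq2 size factors, was not used for any test. The deposited table's fold change, score and p-value columns hold the authors' own DESeq2 comparison and were not used. Counts per pig were not used here. All sample columns were mapped to pigs and 0 were left over.

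The values were compared as log2(FPKM + 0.1) with limma (version 3.58.1 in R 4.3.3), with trended eBayes, two-sided and without covariates. Genes averaging 0.5 FPKM or more, 11136 in all, were tested, with Benjamini-Hochberg adjustment over all of them. The planned design followed the study's two-group model, fitted here on FPKM. A fold change on the log2(FPKM + 0.1) scale understates that of low genes. Ratios to DCN were compared by the exact permutation test. The fit was tested on simulated data. The labels describe each library as a separate pig.

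Genes named are the 8 members, the 3 genes of smallest unadjusted p in each list, the 5 genes most like LUM, neighbours and overlapping genes, and ACTA1 and mitochondrial genes listed at 0. ZEB1, PODN, COL1A1, COL1A2, VCAN, TGFB1, TGFB3, ADIPOQ, FABP4, SCX, MKX, COMP, DES, GSN, TGFB2, ITGA8, TMTC2 and MAP1B were singled out beyond this rule after their values were seen. The members and lists were chosen with earlier results of these data known. Symbols were matched through the gene name table, and file starts were read as 0-based and printed 1-based. The alternatives were other pseudocounts, filters, scalings and variance models, a replicate block and leaving out each pig.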

Additional observations from a re-analysis of the deposited data

How the results depend on the processing

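The 0 member calls at an adjusted p under 0.05 became 1 (LUM) after upper-quartile scaling and 2 (LUM and BGN) at a threshold of 0.10, and ran from 0 to 1 when each pig was left out, with the 1 call, LUM, without LF02. The members higher at an unadjusted p under 0.05, 2 of 8, ran from 2 to 5 when each pig was left out. The companion genes higher at an unadjusted p under 0.05, 24 of 69, were 15 at a filter of 5 FPKM, which leaves fewer genes to test, 38 after upper-quartile scaling, and 16 to 38 when each pig was left out. Upper-quartile scaling moved the median of all tested genes from -0.03 to 0.13 and the share of higher among all genes with an unadjusted p under 0.05 from 44.3% to 69.2%. It was 20.1% at the filter of 5 FPKM and 57.8% without HF01. Over all genes, 8 passed at an adjusted p under 0.05, 82 after upper-quartile scaling and 226 without LF02. Relative to the median of all genes LUM stayed at 1.11 to 1.12 under each scaling. The adjusted p of BGN ran from 0.0684 to 0.260 over the alternatives. When each pig was left out, the log2 fold change ran from -0.17 to 0.48 for DCN, from -0.10 to 0.89 for PRELP and from -0.58 to 0.96 for KERA, which was also at 0.11 with a pseudocount of 1 and at 0.12 after upper-quartile scaling. The log2 ratio to DCN, HF minus LF, ran from -0.044 to 0.41 for PRELP and from -0.54 to 0.47 for KERA. The cause of these reversals was not tested. The median of the members ran from 0.29 to 1.16 and the HF minus LF difference of the summed FPKM from 13.6 to 125.9 when each pig was left out, lowest without HF02 and highest without HF01. With the replicate number as a block the median member log2 fold change stayed at 0.73, the adjusted p was 0.117 for LUM and 0.132 for BGN, and the member calls stayed at 0. Deviations of same-numbered pigs correlated at -0.04 to 0.09 and 1 of 3 pairs correlated best with its own number. The study speaks of pairs of pigs, but the sources used here do not say that equal numbers mark a pair, so the numbers were not taken as pairing the pigs. With 3 pigs per group, intervals as wide as that of KERA cannot be narrowed here.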

Other observations

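The tested gene closest to DCN in its pattern over the 6 pigs was TGFB2, a ligand of the TGF-beta family that decorin can bind, with a root mean square difference of 0.09 on the log2 scale. TGFB2 was at 3.34, 7.41 and 5.02 FPKM for HF01, HF02 and HF03 and at 4.86, 4.04 and 4.01 FPKM in LF01, LF02 and LF03. Both genes had HF01 as the lowest pig and HF02 as the highest. The pair was singled out after its values were seen, among 11135 tested genes, and no test was made of it. The gene closest to ASPN was ITGA8, an integrin subunit, at 0.11, followed by the chromosome 3 neighbour OMD at 0.16. The genes closest to BGN were TMTC2 at 0.14 and MAP1B at 0.16, and no other member was among its 100 closest, since OGN, the nearest member, had 117 genes closer to BGN.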
